A study of Mus musculus with 30 samples.

Results

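Sphingolipids are membrane lipids built on a ceramide core, and 10 mouse genes of their synthesis, led by Fa2h, were followed across the colon libraries. The 10 genes were taken by name from a list that held Fa2h, Ugcg, Gal3st1, Cers2, Cers4, Cers5, Cers6, Sptlc2, Degs1 and Degs2, out of 46078 genes counted, and all 10 were found in every library and passed the filter on low counts in every comparison. The list was drawn up with results of these libraries in view, and Fa2h was chosen by its response to diet in females, so that contrast is described here without a test.

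RNA-seq was made from colon tissue (distal colon in the study's methods) of C57BL/6J mice, 5 to 6 weeks old when they entered the study, with 6 animals per group and 1 library per animal. Females were not ovariectomized. CD F and CD M were females and males on the control diet, HFD F and HFD M were females and males on the high-fat diet, and HFD+E2 M were males on the high-fat diet given estradiol (E2). Diets lasted 13 weeks, and all groups got 9 intraperitoneal injections over the last 3 weeks, of vehicle in the first 4 groups and of E2 at 0.5 mg/kg body weight in the last. There was no E2 group among females and none on CD, so the E2 comparison holds for HFD males alone.

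Ceramide is made in the endoplasmic reticulum: serine palmitoyltransferase, of which Sptlc2 is a catalytic subunit, joins serine to a fatty acyl chain, ceramide synthases (Cers genes) attach a second acyl chain whose length depends on the enzyme, and Degs1 introduces the double bond that turns dihydroceramide into ceramide. Degs2 can instead hydroxylate the base to give phytoceramide, a form that is abundant in intestinal epithelium. Ugcg adds glucose to ceramide and so opens the pathway to glucosylceramide and gangliosides, Gal3st1 sulfates galactosylceramide to sulfatide, and Fa2h puts a hydroxyl group on the fatty acid that ceramide synthases then use, a modification known from myelin, skin and gut epithelium.

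Library totals lay between 8667177 and 17243712 counts, of which at least 26.1% came from mitochondrial genes. In 4 HFD F and 2 HFD M libraries the summed level of 20 marker genes of stratified squamous epithelium, a tissue that lines the skin and the anal canal but not the colon, was 100 TPM or more (TPM is a level scaled to transcript length and library total), and it was below that in all libraries of the other 3 groups. That sum ranged from 31.1 to 1994 TPM in HFD F, from 29.3 to 783 TPM in HFD M, from 23.0 to 54.2 TPM in CD F, from 27.3 to 58.7 TPM in CD M and from 17.3 to 51.3 TPM in HFD+E2 M. Surface colonocyte markers, the expected cells, summed to between 1700 and 3855 TPM over all libraries. Because the tissue was not separated into cell types, fewer cells of a type and less RNA per cell cannot be told apart in any result that follows.

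Fa2h was the least abundant of the 10 genes, and Degs2 and Ugcg were the most abundant. In CD F the mean level was 63.8 TPM for Degs2, 48.7 TPM for Ugcg, 39.5 TPM for Sptlc2 and 39.2 TPM for Cers6. Cers2 followed at 25.9 TPM, then Cers5 (up to 37.7 TPM in its highest library), and Cers4 at 12.8 TPM, Degs1 at 11.3 TPM and Gal3st1 at 10.5 TPM formed a lower tier, above Fa2h at 3.53 ± 0.947 TPM (SD, n = 6). The ranges over the 6 CD F libraries overlapped between each neighbouring pair in this order, with the exception of the last step, where the lowest Gal3st1 library (7.09 TPM) lay above the highest Fa2h library (4.83 TPM). The same order was not kept on every scale: counts scaled to the library total and divided by exonic length in kb gave Degs2 32.2, Ugcg 26.8 and Sptlc2 22.0 on top and Fa2h 2.35 at the bottom, but put Cers5 (13.8) above Cers2 (11.3), and Gal3st1 (8.39) above Degs1 (6.96) and Cers4 (5.63).

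**Figure D1:**
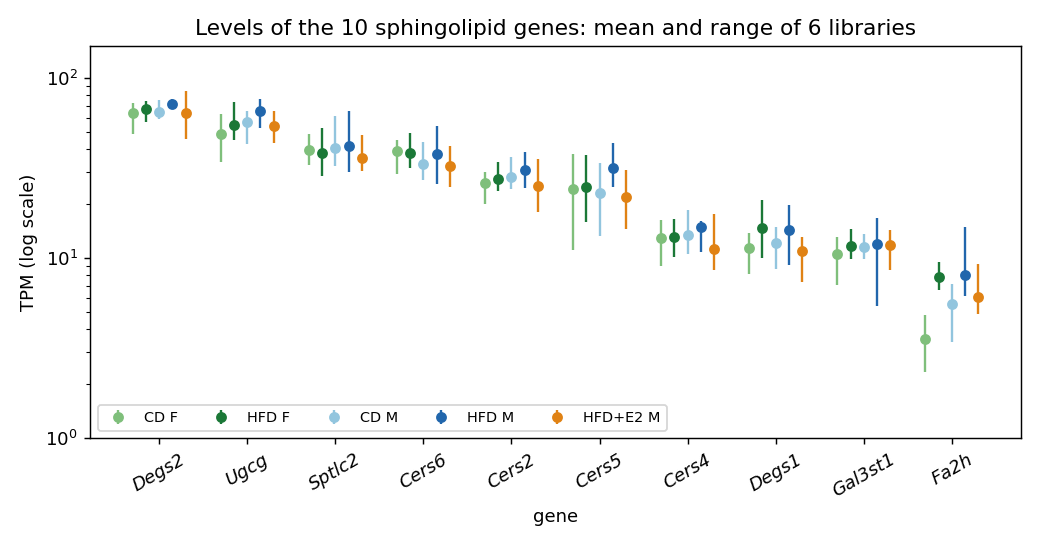
Level of each of the 10 genes in TPM on a log axis, with genes ordered by their mean in CD F, and the 5 groups in colour; points are means and bars run from the lowest to the highest of 6 libraries. Degs2 and Ugcg lead in every group, and Fa2h, with a mean of 3.53 TPM in CD F and 7.84 TPM in HFD F, is the lowest in all 5.

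Fa2h (ENSMUSG00000033579) lies on the minus strand of chromosome 8 (GRCm38, chr8:111345135-111393824), its exons span 3008 bases, and no other annotated gene overlaps it. Levels between libraries are given as counts scaled to the library total after TMM correction (normalised CPM), which sets the bulk of genes equal between libraries. In CD F the lowest, median and highest libraries had 5.07, 6.92 and 9.57 normalised CPM of Fa2h, from 54 to 93 counts. In HFD F they had 11.7, 12.9 and 18.3 normalised CPM, from 141 to 191 counts. Every HFD F library was therefore above every CD F library, and the mean went from 7.03 ± 1.74 to 14.1 ± 2.66 normalised CPM (SD, n = 6 in each).

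The log2 fold change of Fa2h between HFD F and CD F was 1.02 (SE 0.17), or 2.03-fold, given as a description because Fa2h was chosen by it. Genes were called at an unadjusted p under 0.05 and a log2 fold change beyond 0.4 in edgeR's quasi-likelihood test. The study gives these cut-offs without saying whether its p was adjusted. In this contrast 3.67% of 15061 genes were called, and 0.0199% had a Benjamini-Hochberg adjusted p under 0.05. Of the 10 members, 1 (Fa2h) fell in the first share and 0 in the second, and nothing is read from these counts.

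**Figure D2:**
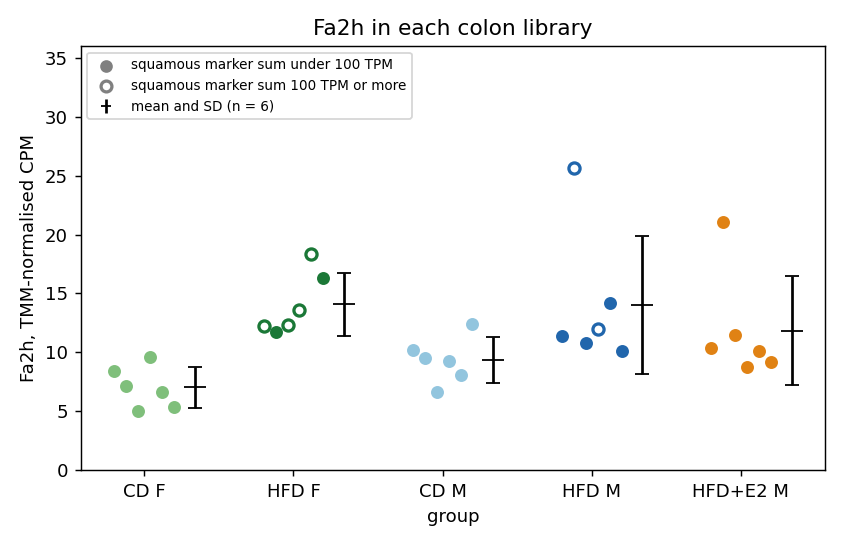
Fa2h in normalised CPM in each of the 30 libraries by group; each point is 1 library, open points are libraries with a squamous marker sum of 100 TPM or more, and the bar beside each group gives the mean and SD of 6. The HFD F points (11.7 to 18.3) all lie above the CD F points (5.07 to 9.57), and 1 library each of HFD M (25.7) and HFD+E2 M (21.0) stands above the rest of its group.

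Squamous marker genes were high in 4 of the 6 HFD F libraries, so the libraries were also read one by one. HFD F replicates 2 and 6 had squamous sums of 48.9 and 31.1 TPM, inside the range of CD F, and their Fa2h levels were 11.7 and 16.3 normalised CPM, above all CD F libraries. With only the libraries under 100 TPM (2 of HFD F and 6 of CD F, a choice made after seeing the data), the log2 fold change of Fa2h was 1.01. Sebocytes, another cell type with much hydroxylated lipid, were looked for as well: their 10 markers summed to 37.8 to 83.4 TPM in CD F and 41.7 to 98.9 TPM in HFD F, and Awat1, Elovl3 and Mc5r had no count in CD F. In HFD F all 10 had counts, and 5 of them had a mean of at least 1 TPM, against 3 in CD F. The part of these cells in the Fa2h difference was not tested.

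**Figure D3:**
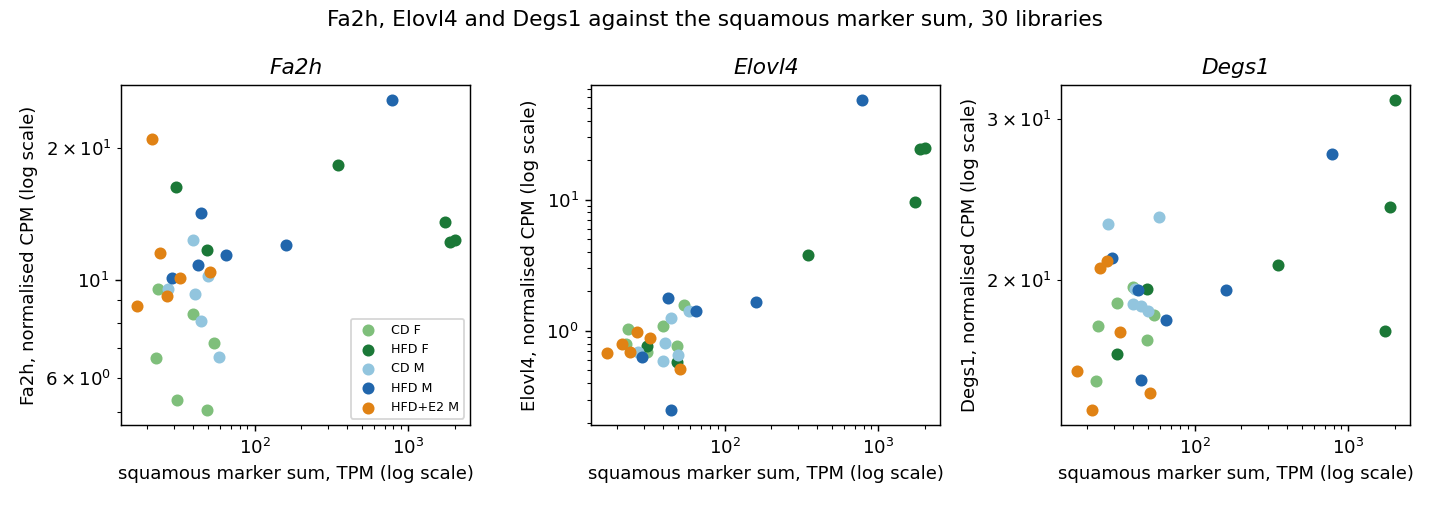
Normalised CPM of Fa2h, Elovl4 and Degs1 (log axes) against the summed TPM of 20 squamous epithelium markers in each of 30 libraries, coloured by group. Elovl4 is at 3.78 to 57.0 in 5 of the 6 libraries with 100 TPM or more, and at 1.66 in the sixth. In libraries under 100 TPM Elovl4 is at most 1.79. Fa2h in HFD F is at 11.7 and 16.3 in replicates 2 and 6 (48.9 and 31.1 TPM). It is at 18.3 in replicate 5 (347 TPM), and at 12.2, 12.3 and 13.6 in replicates 1, 3 and 4 (1851, 1994 and 1731 TPM).

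In males the Fa2h ranges of the diets overlapped. CD M libraries had 6.68, 9.42 and 12.4 normalised CPM (lowest, median, highest). HFD M libraries had 10.1, 11.7 and 25.7. The highest of these, HFD M replicate 2, stood apart from the other 5, which ended at 14.2, and it was also the HFD M library with the highest squamous sum (783 TPM).

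Over the 12 male libraries on vehicle, the log2 fold change of Fa2h between HFD M and CD M was 0.58 (SE 0.22), with an unadjusted p under 0.05 and an edgeR adjusted p of 0.797. Fa2h was therefore called on the unadjusted threshold, the 1 member called here, against 2.9% of all 14991 genes. No gene of the 14991 had an adjusted p under 0.05 in edgeR (0%), while 904 had an unadjusted p under 0.05 and DESeq2 gave 26 adjusted calls. Without HFD M replicate 2 the log2 fold change of Fa2h was 0.33 and the call was lost. With the squamous score as a covariate it was also 0.33, and with libraries under 100 TPM alone 0.31, neither of them called.

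The difference in diet response between the sexes, females minus males, was 0.43 on the log2 scale for Fa2h (SE 0.29), a value given without a test because it holds the female contrast. Over 15800 genes, no interaction of sex and diet had an adjusted p under 0.05 in edgeR (0 genes, lowest 0.104), while 1066 had an unadjusted p under 0.05.

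Between the sexes, Fa2h was lower in CD F than in CD M by a log2 difference of -0.41 (SE 0.18), and the ranges of the groups overlapped (5.07 to 9.57 against 6.68 to 12.4 normalised CPM). On HFD the difference was 0.02 (SE 0.21). Both are descriptions, since they use the female libraries by which Fa2h was chosen. Smooth muscle markers differed between the CD groups without overlap, with a sum of 11 genes of 3097 to 4658 TPM in CD F and 4794 to 7970 TPM in CD M. With their score as a covariate the Fa2h difference on CD was -0.74. Because the sums did not overlap between the groups, that fit can hardly separate sex from muscle content, and nothing is read from it.

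E2 did not give a called change of Fa2h in HFD males. HFD+E2 M libraries had 8.75, 10.3 and 21.0 normalised CPM (lowest, median, highest), overlapping the range of HFD M. The log2 fold change was -0.24 (SE 0.25, edgeR adjusted p = 0.707). This value rested on 1 library in each group. Without HFD+E2 M replicate 2, whose Fa2h was 21.0 at a squamous sum of 21.7 TPM, the log2 fold change was -0.47, which passes the unadjusted thresholds. Without HFD M replicate 2 it was 0.02.

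The other 9 members differed little between the diets. In females the fold changes on the log2 scale, which are descriptions, ran from -0.22 for Sptlc2 (SE 0.11) to 0.30 for Degs1 (SE 0.14), and 5 of the 10 members including Fa2h were above 0. The median over the 10 members was 0.004, and it was 0.001 over all genes tested. In males 9 of 10 were above 0, with a median of 0.12 against -0.01 over all genes.

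**Figure D4:**
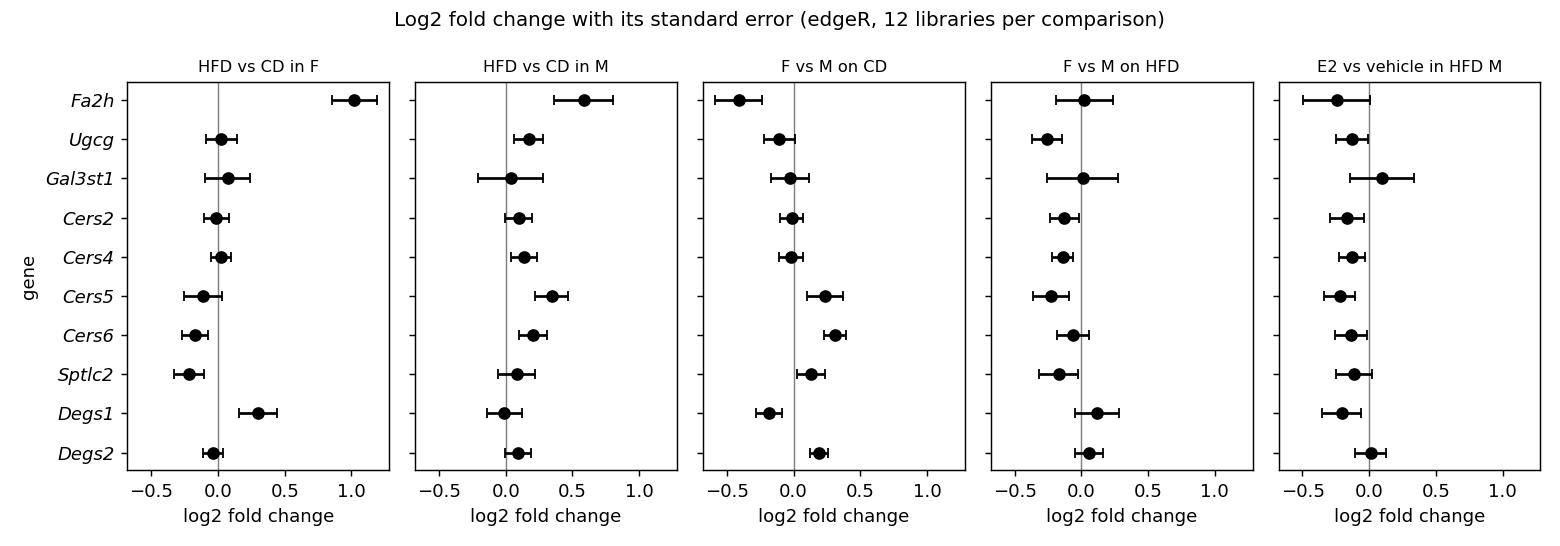
Log2 fold change (points) and its standard error (bars) of the 10 genes in each of the 5 comparisons, from edgeR on 12 libraries each. Fa2h at 1.02 in HFD F against CD F and at 0.58 in HFD M against CD M is the member farthest from 0 in the diet comparisons, and the other 9 lie between -0.22 and 0.34 there.

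Sptlc2, the catalytic subunit at the first step of the pathway, had medians of 168 normalised CPM in CD F and 144 in HFD F, and of 157 in CD M and 158 in HFD M. The ranges overlapped in both sexes (155 to 205 and 129 to 201 in females, 137 to 212 and 130 to 223 in males). Its log2 fold change with diet in males was 0.08 (SE 0.14, edgeR adjusted p = 0.931). Sptlc1, its partner subunit, had an overlapping spread of 36.4 to 54.5 in CD F and 33.5 to 49.7 in HFD F.

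Among the ceramide synthases, Cers6, which prefers shorter acyl chains such as palmitoyl-CoA, showed the one adjusted call of a member in any comparison. CD F libraries had 118, 126 and 149 normalised CPM (lowest, median, highest), and CD M libraries had 91.4, 103 and 124. The groups overlapped, since the highest male library exceeded the lowest female library. The log2 difference was 0.31 (SE 0.08, edgeR adjusted p = 0.0493), which is under the fold minimum of 0.4. On CD, 9.15% of 14922 genes were called between the sexes and 2.92% had an adjusted p under 0.05. Cers6 was the 1 member of 10 in the latter. Fa2h was the 1 member in the former, and nothing is read from that, since Fa2h was chosen with the CD F libraries. With the smooth muscle score as a covariate the Cers6 difference was 0.11, though the sums of those markers did not overlap between the groups. The adjusted call of Cers6 was lost in all but 2 of the 10 alternatives that kept every library, these being DESeq2 and the replicate block. Of the 12 fits that left out 1 library, 1 kept it (without CD M replicate 1). The annotation places 6 Gm genes, which have no assigned name, over Cers6 on its strand. Its counts may be affected by them, in a direction that the sources used here do not show.

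Cers5, which also prefers shorter acyl chains, was higher in HFD M than in CD M by 0.34 on the log2 scale (SE 0.12, edgeR adjusted p = 0.741), with an unadjusted p under 0.05 but short of the fold minimum. CD M libraries had 34.2, 38.2 and 49.8 normalised CPM (lowest, median, highest) and HFD M libraries 43.1, 47.8 and 63.7, with overlap. In females the value of Cers5 was -0.11 (SE 0.15, a description). The difference between the sexes in the diet response was -0.47 for Cers5 (SE 0.20) and -0.38 for Cers6 (SE 0.15), again without a test.

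Cers2, the synthase of very long chains and the most widely expressed one, had medians between 38.7 and 43.5 normalised CPM in the 5 groups. Its fold changes on the log2 scale lay between -0.17 (E2 against vehicle, SE 0.13) and 0.10 (HFD M against CD M, SE 0.10). Cers4 had medians of 67.3 to 74.9 normalised CPM and a log2 fold change of 0.14 with diet in males (SE 0.10, edgeR adjusted p = 0.853). Neither gene passed the thresholds in a tested comparison.

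Neither desaturase was called in a tested comparison. Degs1 had 15.5, 18.1 and 19.6 normalised CPM in CD F (lowest, median, highest) and 16.6, 20.1 and 31.4 in HFD F. The 31.4 was HFD F replicate 3, the library with the largest squamous sum (1994 TPM). HFD F replicate 1, at 1851 TPM, had the next highest Degs1 level of that group. HFD F replicate 4, at 1731 TPM, had 17.6, below the CD F median and below HFD F replicate 2, at 48.9 TPM. With the squamous score as a covariate the Degs1 log2 fold change of 0.30 became -0.03. The part of squamous tissue in the Degs1 levels was not tested. Degs2, the phytoceramide enzyme, had 77.1 to 86.9 normalised CPM in CD F and 66.6 to 76.1 in CD M. These ranges did not overlap by a narrow margin, and the share of all genes without overlap was not counted. The log2 difference of Degs2 was 0.19 (SE 0.07, edgeR adjusted p = 0.150), and on log2(TPM + 1) it was -0.01. Degs2 overlaps Evl and Gm33467 on the other strand, and the strand setting of the counting is not given in the sources used here.

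For the enzymes that put sugar or sulfate on ceramide, no comparison gave a call. Ugcg was lower in HFD F, at 122 to 171 normalised CPM, than in HFD M, at 139 to 196, by -0.26 on the log2 scale (SE 0.11, edgeR adjusted p = 0.872), with overlapping ranges. On HFD, 3.09% of 15179 genes were called between the sexes and 0.0988% had an adjusted p under 0.05, and 0 of 10 members were called (Ugcg was under the fold minimum; 773 genes had an unadjusted p under 0.05, and DESeq2 gave 50 adjusted calls). Gal3st1 varied widely within HFD M, whose libraries had 7.88, 19.3 and 28.9 normalised CPM (lowest, median, highest), against 13.4 to 20.4 in CD M. Its substrate is made by Ugt8a, the galactosylceramide synthase. Ugt8a had 1 to 2 counts per library in CD F and 1 to 4 in CD M. It reached 53 in HFD M replicate 2 and 51 in HFD F replicate 3, with squamous sums of 783 and 1994 TPM. HFD F replicate 1 had 43 counts at 1851 TPM. HFD F replicates 4 and 5 and HFD M replicate 4, at 1731, 347 and 160 TPM, had 11, 6 and 2. Whether the cells that hold Gal3st1 transcripts also hold those of Ugt8a was not tested.

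E2 lowered none of the 10 members past the thresholds (0 of 10 called in edgeR, with 1535 genes at an unadjusted p under 0.05 and 54 adjusted calls in DESeq2 over all genes). Over all 15010 genes, 5.87% were called and 0.00666% had an adjusted p under 0.05. Of the members, 8 had a fold change below 0 and 2 above, with a median of -0.13 on the log2 scale against 0.00 over all genes. The member with the smallest p was Cers5, at -0.22 (SE 0.12, edgeR adjusted p = 0.506). This comparison uses the HFD M libraries of the diet comparison, so the 2 medians, 0.12 for diet and -0.13 for E2, are not independent. On TPM, Cers5 (-0.53) and Cers4 (-0.40) were lower in log2(TPM + 1), Cers5 past the thresholds. On that scale the median of all genes was itself at -0.12.

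Of the rest of the pathway, 66 genes were examined in 6 lists for de novo synthesis, sphingomyelin, glycosphingolipids, ceramide turnover, hydroxylated fatty acids and very long chain elongation. In HFD F against CD F, 58 were tested and 6 were called, 4 higher and 2 lower, where 3.67% of all genes were called, and none had an adjusted p under 0.05. Elovl4, an elongase for very long chains of skin ceramides, had the largest log2 fold change, 3.42 (SE 0.90, edgeR adjusted p = 0.487). Smpdl3b, a phosphodiesterase related to acid sphingomyelinase, was at 0.84, B4galnt1, the GM2 synthase, at 0.66, and Gltp, a glycolipid transfer protein, at 0.59.

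The 2 lower ones in that comparison were Neu3, a plasma membrane sialidase, at -0.50 and B3gnt5, which makes the lacto-series core, at -0.42. B3gnt5 went the other way on TPM, with 0.81 on log2(TPM + 1), so its direction depends on which of the deposited values is read. When 1 library was left out, Neu3 was called in 5 of 12 fits, B4galnt1 in 6 and B3gnt5 in 9, and Elovl4, Smpdl3b and Gltp in all 12. With the squamous score as a covariate, 0 of the pathway genes were called, and Elovl4 became -0.81 and Gltp -0.095. Cers3, the synthase of ultra-long chains of skin, followed the same libraries: it had 1 to 5 counts per library in CD F and 1 to 91 in HFD F, where replicates 2 and 6 had 0.42 and 0.086 normalised CPM. Sptlc3, the alternative subunit of serine palmitoyltransferase, had 0 counts in all 18 libraries of CD F, CD M and HFD+E2 M, and 0 to 72 counts in HFD F.

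In HFD M against CD M, 3 of 58 pathway genes were called, all higher, where 2.9% of all genes were called. Phyh, the peroxisomal enzyme that hydroxylates phytanoyl-CoA at the position next to the carboxyl group, had 51.6, 53.2 and 62.7 normalised CPM in CD M (lowest, median, highest) and 67.2, 78.4 and 94.4 in HFD M. No HFD M library overlapped CD M, and the share of all genes without overlap was not counted. The log2 fold change of Phyh was 0.54 (SE 0.10, edgeR adjusted p = 0.149), and it stayed between 0.48 and 0.58 when each library was left out, called in 12 of 12 fits. In females the value was 0.14 (SE 0.11, edgeR adjusted p = 0.999). The difference in diet response of Phyh, females minus males, was -0.40 (SE 0.14, edgeR adjusted p = 0.630), so a difference between the sexes was not called. In males Acer1, an alkaline ceramidase, was at 0.45 (SE 0.15, edgeR adjusted p = 0.704). The third, Elovl4, at 3.50, was at 0.35 without HFD M replicate 2, and was not called.

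Between the sexes on CD, 2 of 57 pathway genes were called, where 9.15% of all genes were: Neu3 was higher in CD F at 0.84 on the log2 scale (SE 0.23, edgeR adjusted p = 0.0577), and St3gal5, the GM3 synthase, was lower at -0.80. On HFD, B4galnt1 was the 1 gene of 59 called, where 3.09% of all genes were, at 0.73 (SE 0.29, edgeR adjusted p = 0.872), and it was at 0.36 and not called in the libraries with a squamous sum under 100 TPM.

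With E2, 7 of 57 pathway genes were called, all lower, where 5.87% of all genes were called, and none had an adjusted p under 0.05. Of them, 3 belong to the control of serine palmitoyltransferase: Ormdl2 at -0.58 (SE 0.16) and Ormdl1 at -0.53 (SE 0.21) encode inhibitory subunits, and Sptssa at -0.57 (SE 0.21) a small activating subunit. Each had an edgeR adjusted p of 0.454 to 0.461. Ormdl2 had 25.4, 30.8 and 43.6 normalised CPM in HFD M (lowest, median, highest) and 17.6, 21.8 and 29.4 in HFD+E2 M, with overlapping ranges.

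The other 4 were Smpdl3b at -0.87, Neu3 at -0.49, Acer3, an alkaline ceramidase, at -0.48, and Hsd17b12, the ketoreductase of fatty acid elongation, at -0.45. Several of these calls changed with 1 library: of 12 fits that each left out 1 library, Hsd17b12 was called in 5, with values from -0.54 to -0.28, Acer3 in 7, from -0.59 to -0.32, Neu3 in 7, from -0.57 to -0.39, and Smpdl3b and Ormdl1 in 10 each. Ormdl2 and Sptssa were called in all 12. The median over the 57 pathway genes was -0.07 on the log2 scale, against 0.00 over all genes. With the squamous score as a covariate 2 of the pathway genes were called, and in the libraries under 100 TPM 2 were.

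Over the 30 libraries, none of the other 9 members tracked Fa2h closely: Pearson's r of log2 normalised CPM with Fa2h ran from -0.06 (Gal3st1) to 0.32 (Cers4). The 6 genes most like Fa2h, of 13713 compared, were Smim24 (r = 0.72), a small membrane protein, Herpud1 (0.71), of the endoplasmic reticulum stress response, Ciart (0.70), a repressor of the circadian clock, Slc2a5 (0.69), the fructose transporter, and Dbp (0.68) and Tef (0.67), a pair of transcription factors of the clock output. Spearman's rho was 0.62 to 0.70 for them. With the group means removed r was 0.33 for Tef and 0.59 for Smim24, and the 6 genes then ranked 25 (Smim24), 163 (Herpud1), 145 (Ciart), 44 (Slc2a5), 418 (Dbp) and 1003 (Tef) among those compared, so the order rests in part on differences between groups. With group means kept and the 2 libraries farthest from the median of Fa2h left out, r was 0.63 to 0.69 for all 6. These values are descriptions over libraries that share groups and scaling.

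All 6 had their lowest group median in CD F, as did Fa2h, the gene they were matched to. Fa2h was chosen by a contrast with CD F and the matching kept group means, so the pattern follows partly from that. Dbp was at 2.86, 3.75 and 28.3 normalised CPM in CD F (lowest, median, highest), and at 20.9, 29.3 and 45.7 in HFD F. CD M had a median of 27.3 and HFD M of 41.5. The library at 28.3, CD F replicate 4, was also the CD F library with the most Fa2h, 9.57 normalised CPM. CD F replicate 1, the next highest in Fa2h at 8.38, had the lowest Dbp, 2.86. Ciart was at 0.24 to 1.44 in CD F and 1.74 to 7.18 in HFD F, without overlap. The paper lists Ciart among genes that responded to HFD in both sexes and that differed between the sexes on both diets. In males it lists Ciart and Tef as raised by HFD and lowered by E2. It also reports that time of day at sacrifice was the same for all mice, and that its design was not a circadian experiment. The part of clock phase in the Fa2h difference was not tested.

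**Figure D5:**
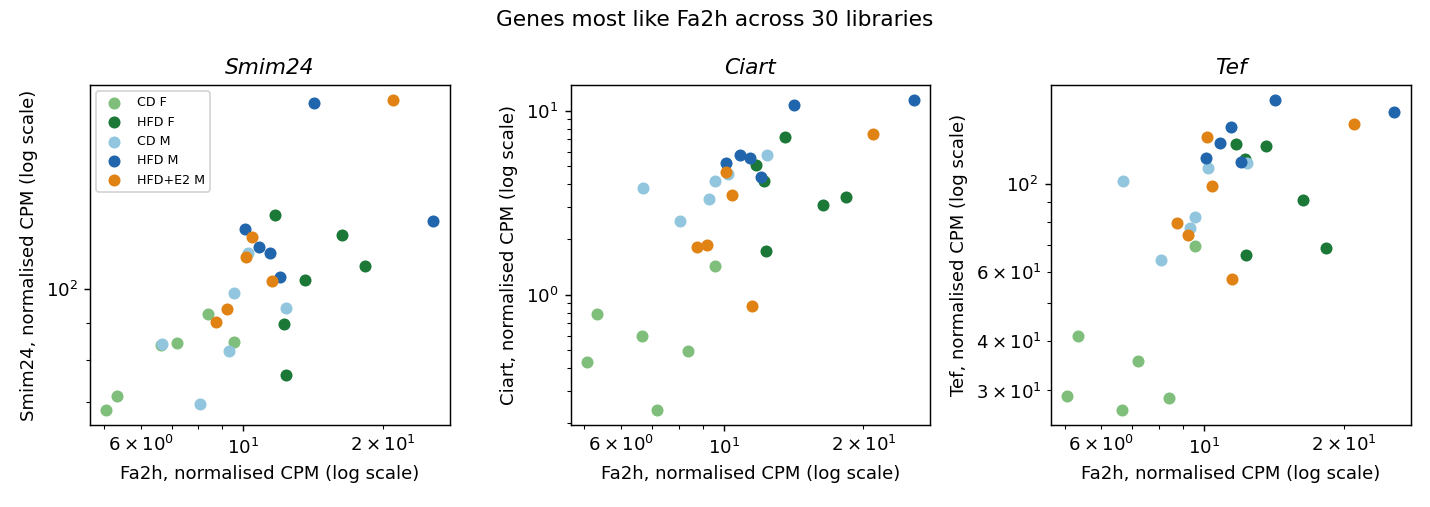
Normalised CPM of Smim24, Ciart and Tef against that of Fa2h in 30 libraries, both axes on a log scale and groups in colour. Most CD F libraries (Fa2h 5.07 to 9.57) lie at the lower left of each panel, with Ciart at 1.44 or less, and HFD M replicate 2 and HFD+E2 M replicate 2 lie at the right with Fa2h of 25.7 and 21.0.

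Of these genes, Ciart and Tef carry the E-box CACGTG, the element to which clock activators bind, in the promoter window of RefSeq (250 bases before to 50 after the annotated start, GRCm38.p6), so the members were searched for it. The motif reads the same on both strands and is held by 7.15% of 32851 promoter windows. Of the 10 members, 9 had a window (Fa2h had none), with 12 windows in all, and 3 of the 12 held the motif, 1 each of Cers2, Cers6 and Degs1. The sites are shown with 12 bases on each side, 5′ to 3′ on the strand of the gene, with the E-box in capitals. They are at chr3:95315049-95315078 (Cers2, plus strand), chr2:68861407-68861436 (Cers6, plus), chr1:182282221-182282250 (Degs1, minus), chr3:95882327-95882356 (Ciart, minus, the first of 3 sites) and chr15:81802534-81802563 (Tef, plus).
Cers2: cgccctgcggggCACGTGccacccgccccg
Cers6: cggccaggctgcCACGTGacaggcgaggcg
Degs1: gggagcctcaatCACGTGgtccagtcagct
Ciart: tgcatctagagtCACGTGttgccggtaagc
Tef: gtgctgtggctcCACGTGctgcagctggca
A match of letters is a description and does not show that a factor binds. The 3 members with an E-box had r with Fa2h of 0.20 (Cers2), 0.10 (Cers6) and 0.15 (Degs1), inside the range of the members without one.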

How the data were processed

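Colon RNA of 30 mice in 5 groups of 6 was sequenced by the authors from ribosome-depleted stranded libraries (paired-end, NovaSeq) and mapped to GRCm38 with STAR. The authors deposited whole-number featureCounts counts per gene, not normalised, and StringTie TPM values. Versions of these tools and the strand setting are not given in the sources used here. Groups were taken from the titles, and each library's counts matched its own TPM best in 30 of 30 libraries. Gene IDs listed more than once (16 to 24 per TPM file) were summed.

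Counts were tested with edgeR 4.0.16 (filterByExpr, TMM, robust quasi-likelihood test; limma 3.58.1, DESeq2 1.42.0, R 4.3.3) on the 12 libraries of each comparison. A gene was called at an unadjusted p under 0.05 and a log2 fold change beyond 0.4. The study gives these cut-offs but does not say whether its p was adjusted. An adjusted call is a Benjamini-Hochberg p under 0.05 over all genes tested, with no fold minimum. The scripts were tested on simulated data. Normalised CPM (TMM over 30 libraries) served to compare libraries, TPM to compare genes. Limma on log2(TPM + 1) moved the median of all genes by -0.12 in the E2 comparison, and edgeR by 0.00. TMM holds that median near 0.00 by design, so this does not show which scale is sounder. Folds come from counts, the input the study also used for its tests.

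The 10 members and the marker and pathway lists were chosen with earlier results of these data known. Named are all members, pathway genes called in a comparison (largest log2 fold change first, at most 6 per comparison) or needed to describe a role, and the 6 genes with the highest Pearson r with Fa2h among genes with a mean of at least 1 TPM. All 7 genes called with E2 are named, 1 more than that rule takes. Another gene of the pathway lists is not reported here. Genes of overlapping annotation are uncertain. Total counts of 8667177 to 17243712 per library limit precision; among the 10 members Fa2h had the fewest, 54 to 259 counts.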

Additional observations from a re-analysis of the deposited data

Results flagged for a closer look

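Outlying libraries were sought by Dixon's ratio in 70 groups of 6, for the 10 members and Elovl4, Phyh, Cers3 and Ugt8a in 5 groups each, and 8 stood out. Chance gives about 1 in 20 groups for normally distributed values. The values here were CPM without logs, some from few counts, so that rate is only a guide. Elovl4, Phyh, Cers3 and Ugt8a came from the pathway lists, which were drawn up with earlier results known. The 8 are therefore not weighed against chance.

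HFD M replicate 2 stood above its group in 4 genes, at 25.7 normalised CPM for Fa2h (next highest 14.2), 57.0 for Elovl4 (1.79), 6.35 for Cers3 (0.92) and 5.26 for Ugt8a (0.45). This library had a squamous marker sum of 783 TPM, the highest in HFD M, and the part of squamous tissue in its Fa2h level was not tested. HFD+E2 M replicate 2 stood above its group for Fa2h at 21.0 normalised CPM (next highest 11.5), with a squamous sum of 21.7 TPM, below all CD F libraries, and with Elovl4 at 0.80 normalised CPM.

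Sptlc2 was high in HFD F replicate 2 at 201 normalised CPM (next highest 151) and in CD M replicate 1 at 212 (next highest 161). Phyh was high in CD M replicate 3 at 62.7 normalised CPM (next highest 53.7), which was still below the lowest HFD M library, at 67.2.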

How the results depend on the processing

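The Fa2h log2 fold change between HFD F and CD F stayed between 0.93 and 1.16 under all alternatives, of which leaving out 1 library gave 0.93 to 1.12. The count of members with an adjusted call there was 0 as analysed, 1 by DESeq2, 1 with no filter on low counts, 1 with all 30 libraries in 1 fit, 1 with the replicate block, and 0 to 1 without 1 library (1 without CD F replicate 4 or HFD F replicate 2). Fa2h was chosen by this contrast, so nothing is read from these counts.

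For HFD M against CD M, 1 member was called, 0 with the squamous score, with the smooth muscle score and in libraries with a squamous sum under 100 TPM (chosen after seeing the data), and 0 to 2 without 1 library (0 without HFD M replicate 2, 2 without CD M replicate 1). For F against M on CD, 1 member was called and 0 with all 30 libraries in 1 fit, with 0 to 1 without 1 library. The member called as analysed was Fa2h, which was chosen with the same CD F libraries, so nothing is read from these counts. The count of members with an adjusted call was 1 there, 2 by DESeq2, and 0 with the size factors of DESeq2, with no filter, with at least 10 counts in every library, with all 30 libraries, with the squamous score, with the smooth muscle score, and on log2(TPM + 1) and log2(TPM + 0.1), and it was 0 to 1 without 1 library. With E2, 0 members were called, 1 on log2(TPM + 1), 2 on log2(TPM + 0.1), and 0 to 1 without 1 library (1 without HFD+E2 M replicate 2).

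Of the pathway genes, 6 were called between HFD F and CD F, 10 by DESeq2, 10 with no filter, 0 with the squamous score, 2 with the smooth muscle score and 0 in libraries under 100 TPM. Between HFD M and CD M 3 were called, 1 with the smooth muscle score and 2 to 5 without 1 library (5 without HFD M replicate 5). Between the sexes 2 were called on CD, 1 with the squamous score, 6 with the smooth muscle score, 4 on log2(TPM + 0.1), and 1 to 6 without 1 library (6 without CD M replicate 1; 4 without CD F replicate 4, CD F replicate 5 or CD M replicate 6; 1 without CD M replicate 3 or 5). On HFD it was 1, 2 with the squamous score, 3 with the smooth muscle score, 0 under 100 TPM and 0 to 4 without 1 library (4 without HFD F replicate 2). With E2 the count of 7 was 2 with the squamous score, 3 with the smooth muscle score, 2 under 100 TPM, 11 on log2(TPM + 1), 13 on log2(TPM + 0.1) and 3 to 10 without 1 library (3 without HFD M replicate 2).

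Among the pathway genes called, direction turned in 6 cases. B3gnt5 in the female diet comparison was 0.81 on log2(TPM + 1) and 0.86 on log2(TPM + 0.1). In the same comparison Gltp was -0.095 with the squamous score and -0.074 in libraries under 100 TPM, and Elovl4 was -0.81 and -0.55. The cause was not tested.

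By the rule that every pair must correlate over 0.1, the replicate numbers were not taken to pair the samples: 2 to 5 of 6 same-numbered pairs per comparison had deviations that correlated over 0.1, and 0 to 3 correlated best with their own number. With the replicate block, the members called were 1 (HFD M against CD M), 1 (sexes on CD), 0 (sexes on HFD) and 0 (E2), and the pathway genes called were 5, 2, 3, 1 and 8 in the order of the 5 comparisons, beginning with diet in females and in males. Nothing is read from the member count for the sexes on CD, since Fa2h was chosen with the CD F libraries. Over all genes the block moved the adjusted calls from 3 to 12, 0 to 2, 435 to 941, 15 to 10 and 1 to 7.

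Over all genes, edgeR and DESeq2 gave 3 and 224 adjusted calls for diet in females, 435 and 770 for the sexes on CD, 15 and 50 on HFD, and 1 and 54 for E2. Depth limits Fa2h, Elovl4, Cers3 and Ugt8a most. Libraries of 1 group came from separate animals.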
